A study of Homo sapiens with 10 samples.

Results

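The genes that make, store, recapture and degrade catecholamines were described in SH-SY5Y, an established human neuroblastoma cell line, after treatment with paraquat. The set was defined as 9 named genes, of which 7 had a transcript cluster annotated to that gene symbol alone, out of 14232 genes with such a row. DBH and MAOB were the other two: each was found only in a row shared with further genes, and those rows are given separately. The 7 genes had 1 row each. Paraquat is a herbicide that accepts and passes on single electrons in cells and so gives rise to superoxide. The paraquat group had 5 arrays (8, 12, 14, 18 and 20, as numbered in the sample titles) and the untreated group, labelled ctrl, had 5 arrays (7, 11, 13, 17 and 19). All came from the same line with no other agent or genetic change named. The sources used here give neither the dose nor the duration of the treatment. Total RNA, depleted of ribosomal RNA, was measured on Affymetrix exon arrays, and each value is an RMA expression value on the log2 scale. Per-array values are listed in the order of the array numbers above.

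Catecholamine synthesis starts with the hydroxylation of tyrosine to L-DOPA by tyrosine hydroxylase, which needs tetrahydrobiopterin as a cofactor. L-DOPA is decarboxylated to dopamine, vesicular monoamine transporters load dopamine into secretory vesicles, and dopamine beta-hydroxylase inside the vesicle turns it into noradrenaline. Sympathetic neurons take released noradrenaline back up through a plasma membrane transporter, and monoamine oxidases on the outer mitochondrial membrane deaminate what is not stored.

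After paraquat the transcripts for decarboxylation, vesicle loading by SLC18A1, reuptake and deamination by MAOA were lower. TH, of the first hydroxylation, and GCH1, of the first step of cofactor synthesis, were not called changed. Of the 7 genes, 4 fell (DDC, SLC18A1, SLC6A2 and MAOA) and 1 rose (SLC18A2) at a Benjamini-Hochberg adjusted p under 0.05 in a limma model over all 22011 rows. TH and GCH1 did not pass, and whether the TH row lies above background was not tested. Among all 14232 genes 14.2% fell and 9.55% rose by the same rule. The median log2 change was -0.93 for the 7 genes and -0.0041 for all genes. The paraquat and ctrl arrays did not overlap for 5 of the 7, against 19.9% of all genes. Nothing in the labels ties the arrays of a group to separate cultures. The p-values therefore rest on array-to-array spread that may be technical. In a bulk sample, fewer cells of a kind and less RNA per cell cannot be told apart.

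**Figure D1:**
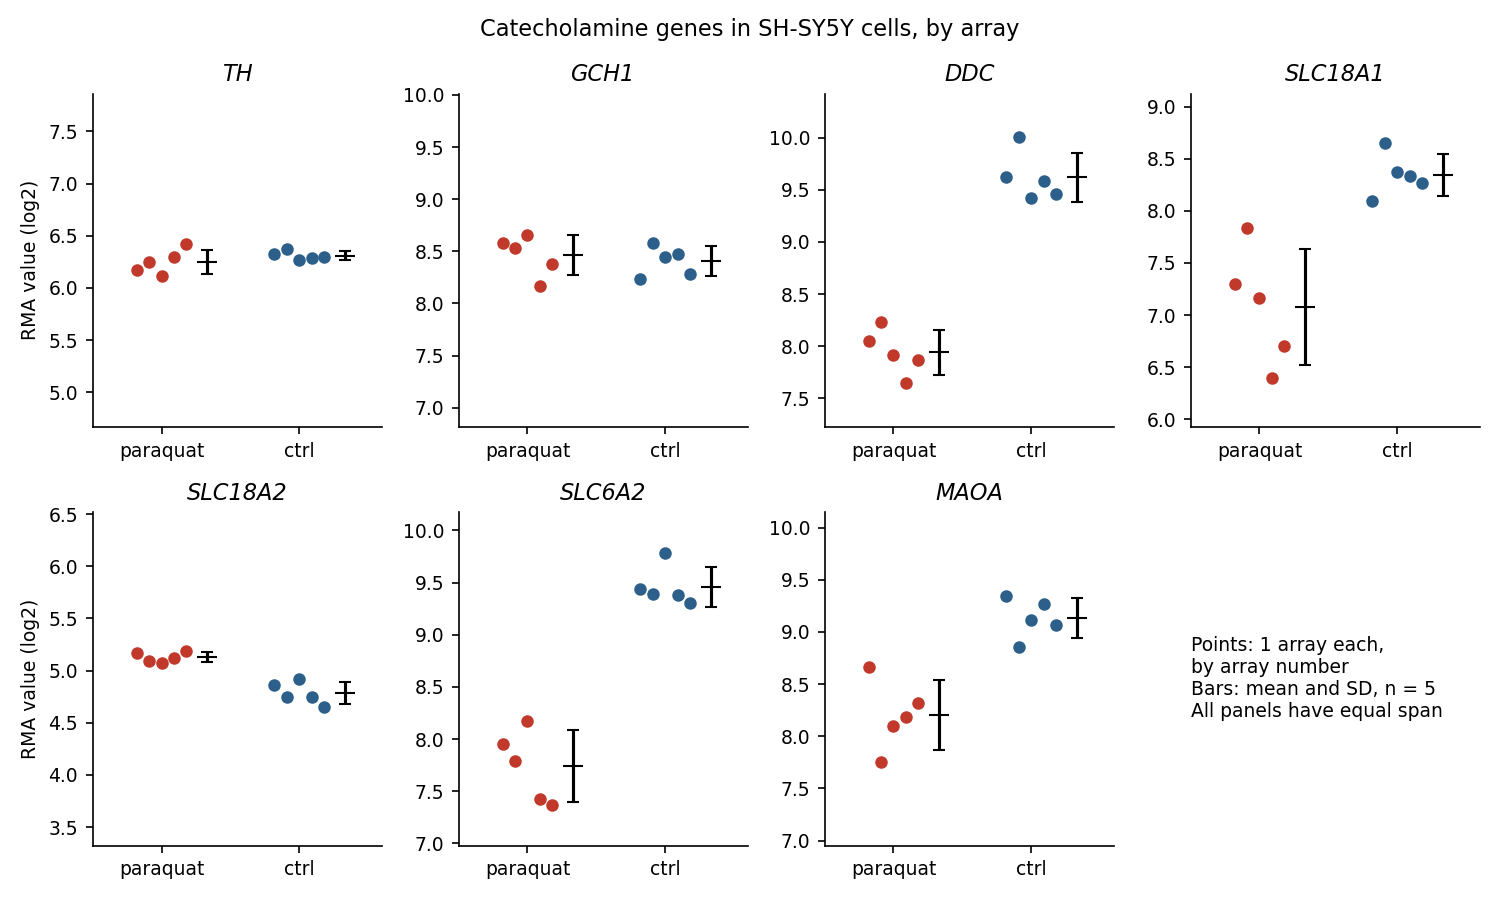
RMA values (log2, vertical axes, all of equal span) of the 7 genes in the 5 paraquat arrays (red, left) and the 5 ctrl arrays (blue, right), 1 point per array, with the mean and SD beside them. The groups are apart for DDC, SLC18A1, SLC18A2, SLC6A2 and MAOA, and they overlap for TH and GCH1.

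Array medians lay between 6.78 and 6.92 in the paraquat group and between 6.85 and 6.93 in the ctrl group. Ctrl 11 had the widest residuals of any array, with an SD of 0.362, against 0.206 to 0.292 for the other arrays. It was the highest ctrl array for 4 of the 7 genes (TH, GCH1, DDC and SLC18A1) and the lowest for 1 (MAOA). The calls for all 7 genes were the same without ctrl 11 and paraquat 12.

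The synthesis genes were TH, GCH1 and DDC. TH encodes tyrosine hydroxylase, the rate-limiting enzyme of the pathway. Its row (transcript cluster 3359180) had values of 6.17, 6.24, 6.11, 6.30 and 6.42 in the paraquat arrays, against 6.32, 6.37, 6.26, 6.29 and 6.30 in the ctrl arrays. The groups overlapped, and the paraquat arrays were the more scattered, with an SD of 0.12 against 0.042 in ctrl. The change was -0.06 ± 0.079 (log2, moderated SE), with a 95% interval from -0.23 to 0.11 and an adjusted p of 0.685 by limma. The TH row lay below the median of every array in both groups. Probes differ in how strongly they bind, so that position is not a measure of how much TH transcript the cells held. With no detection calls used here, it was not tested whether the row lies above background. The flat values therefore do not show that the TH transcript itself was unchanged.

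GCH1 encodes GTP cyclohydrolase I, which makes the first intermediate on the way to tetrahydrobiopterin. Its row (3565524) had 8.58, 8.53, 8.66, 8.17 and 8.38 in the paraquat arrays, against 8.23, 8.58, 8.45, 8.48 and 8.28 in the ctrl arrays. Paraquat 18 was the lowest array and paraquat 14 the highest, so the treated group spanned the whole ctrl range. The change was 0.06 ± 0.11, with an interval from -0.19 to 0.31 (limma adjusted p = 0.789).

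DDC encodes aromatic L-amino acid decarboxylase, which converts L-DOPA to dopamine. Its row (3050388) had 8.05, 8.23, 7.91, 7.64 and 7.87 in the paraquat arrays, against 9.62, 10.005, 9.42, 9.59 and 9.46 in the ctrl arrays. Every paraquat array lay more than 1 log2 unit below the lowest ctrl array. DDC fell 3.199-fold, to a mean of 7.94 ± 0.22 in paraquat arrays, against 9.62 ± 0.23 in ctrl arrays (SD, n = 5 each). The log2 change was -1.68 ± 0.14 (limma adjusted p = 1.16e-05). Among all genes, those with profiles closest to that of DDC over the 10 arrays were BIRC5, CENPA and CDCA3. Their root mean square distances from DDC, each profile centred on its own mean, were 0.116, 0.142 and 0.157 log2 units. This distance favours genes with a change of similar size, here log2 changes of -1.65, -1.57 and -1.67. It also shrinks for rows that vary little, so distances are not compared between members. Shared regulation was not tested.

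The storage genes were SLC18A1 and SLC18A2, and they changed in opposite directions. SLC18A1 encodes VMAT1, the vesicular monoamine transporter typical of endocrine cells such as adrenal chromaffin cells. Its row (3126694) had 7.30, 7.84, 7.17, 6.40 and 6.70 in the paraquat arrays, against 8.09, 8.65, 8.38, 8.34 and 8.27 in the ctrl arrays. All paraquat arrays lay below all ctrl arrays, but only 0.26 lay between paraquat 12 and ctrl 7. The treated arrays spanned 1.44 log2 units, the widest range of the 7 genes in either group, with paraquat 18 lowest. SLC18A1 fell 2.41-fold, to 7.08 ± 0.56 in paraquat arrays, against 8.35 ± 0.20 in ctrl arrays. The log2 change was -1.27 ± 0.23 (limma adjusted p = 0.00291). The closest profiles were those of CCNE2, SHD and PXMP2, at distances of 0.213, 0.219 and 0.219.

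SLC18A2 encodes VMAT2, the vesicular transporter typical of monoaminergic neurons. Its row (3266279) had 5.17, 5.09, 5.07, 5.12 and 5.19 in the paraquat arrays, against 4.86, 4.74, 4.92, 4.75 and 4.65 in the ctrl arrays. The lowest paraquat array, 14, lay above the highest ctrl array, 13, and the treated arrays spanned 0.12 log2 units in all. SLC18A2 rose 1.27-fold, to 5.13 ± 0.051 in paraquat arrays, against 4.78 ± 0.11 in ctrl arrays. The log2 change was 0.34 ± 0.078 (limma adjusted p = 0.00933). The row is dim, at percentile 27.3 of all rows by mean. RMA compresses changes of dim rows, and with no detection calls used here it was not tested whether the row lies above background. The call was lost when a minimum fold of 1.2 was required, and the row dropped out when the dimmest 33.3% of rows were removed. The closest profiles were those of DUS3L, ZDHHC11 and RGL2, at distances of 0.0572, 0.0596 and 0.0614.

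How unequally the vesicular transporter rows changed was measured within arrays. The SLC18A2 row minus the SLC18A1 row was -1.95 ± 0.58 in paraquat arrays and -3.56 ± 0.25 in ctrl arrays (log2, SD, n = 5 each). It lay between -2.75 and -1.27 in paraquat arrays and between -3.91 and -3.23 in ctrl arrays, so the groups did not overlap. The change of SLC18A2 exceeded that of SLC18A1 by 1.61 (two-sided exact permutation test, p = 0.00794, the lowest value possible with 5 arrays a group). This was the only 1 of 3 planned pairs that could be run, since DBH and MAOB, in the other pairs, had no row of their own. Each of the rows alone already separated the groups, in opposite directions, so their difference had to reach this p-value by construction. The test therefore adds no evidence to the results of the single rows. The fall of SLC18A1 alone could carry the unequal change. The test does not bear on the rise of SLC18A2 or on which transporter was more abundant.

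**Figure D2:**
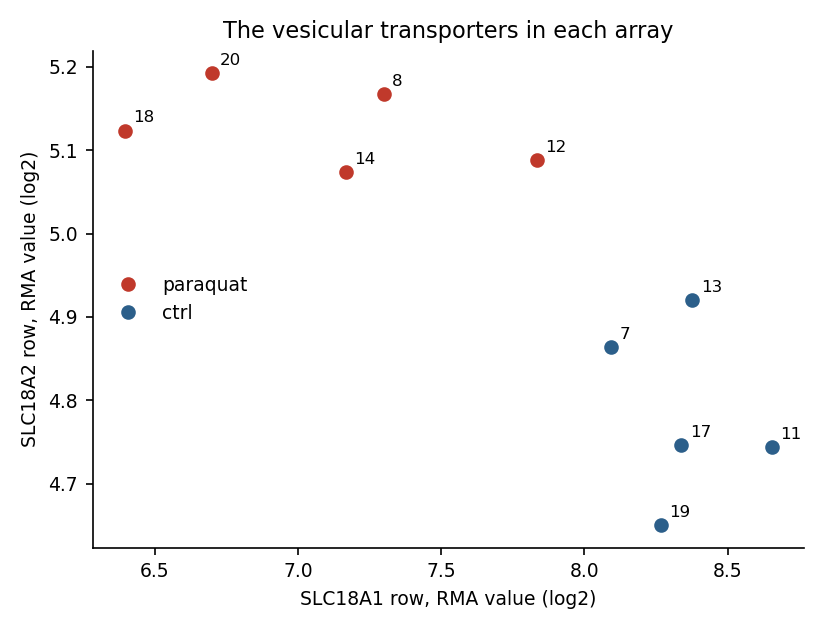
RMA values (log2) of the SLC18A1 row (horizontal axis) and the SLC18A2 row (vertical axis) in each paraquat array (red) and ctrl array (blue), with array numbers beside the points. Paraquat arrays lie at upper left and ctrl arrays at lower right, and paraquat 18 and 20 are farthest left, at 6.40 and 6.70.

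The promoter window of SLC18A2 is shown because this was the member that rose, and that of MAOA is shown beside it as a member that fell. Both are the 250 bases before the annotated start in RefSeq, build GRCh38.p14. The SLC18A2 window lies at chr10:117240864-117241113 on the plus strand and the MAOA window at chrX:43656049-43656298 on the plus strand. Capitals mark matches, on either strand, to the cyclic AMP response element TGACGTCA and to the GC box GGGCGG, the core bound by SP1-type zinc finger proteins.
SLC18A2: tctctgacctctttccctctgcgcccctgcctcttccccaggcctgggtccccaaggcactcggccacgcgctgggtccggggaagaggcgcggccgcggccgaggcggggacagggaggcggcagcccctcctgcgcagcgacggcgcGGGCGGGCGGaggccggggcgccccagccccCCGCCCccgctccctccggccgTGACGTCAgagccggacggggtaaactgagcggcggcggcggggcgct
MAOA: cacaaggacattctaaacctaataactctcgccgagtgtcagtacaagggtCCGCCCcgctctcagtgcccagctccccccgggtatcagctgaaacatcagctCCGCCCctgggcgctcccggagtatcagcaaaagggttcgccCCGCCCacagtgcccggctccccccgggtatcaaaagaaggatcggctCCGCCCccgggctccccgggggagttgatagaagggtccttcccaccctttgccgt
The SLC18A2 window held 1 cyclic AMP response element, whose first base lies 48 bases before the start, and 3 GC boxes, 2 of which overlap. The MAOA window held 4 GC boxes, starting 199, 146, 104 and 56 bases before the start, and no match to the cyclic AMP response element. Of 34943 such windows, 1.63% held the cyclic AMP response element, 42.5% held a GC box and 7.60% held at least 4. RefSeq lists 2 starts for DDC, and neither window held either motif. Windows were searched for 3 of the 7 genes (DDC, SLC18A2 and MAOA). No window of SLC18A1 or of the other members was searched. The windows were searched on both strands for 4 further motifs. The AP-1 motif TGANTCA, found in 6.59% of all windows, had no match in the windows of these genes. The GATA motif AGATAA, found in 9.19% of all windows, had none either. The homeodomain core TAATTA, found in 4.35% of all windows, also had none. The E-box CANNTG, found in 61.8% of all windows, matched 2 times, overlapping, in 1 DDC window and 1 time in that of MAOA. A match is a stretch of letters and not a measured binding site.

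SLC6A2 encodes the noradrenaline transporter, which returns released noradrenaline to the nerve ending. Its row (3661766) had 7.95, 7.79, 8.17, 7.42 and 7.37 in the paraquat arrays, against 9.44, 9.39, 9.79, 9.38 and 9.30 in the ctrl arrays. The groups were apart by more than 1 log2 unit, and paraquat 14 and ctrl 13 were the highest of their groups. SLC6A2 fell 3.29-fold, to 7.74 ± 0.34 in paraquat arrays, against 9.46 ± 0.19 in ctrl arrays. The log2 change was -1.72 ± 0.16 (limma adjusted p = 3.60e-05), with a 95% interval from -2.07 to -1.36 that overlaps the interval of DDC, from -1.98 to -1.38. The closest profiles were those of MAP3K5, PRICKLE1 and RASL11B, at distances of 0.116, 0.176 and 0.187.

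MAOA encodes monoamine oxidase A, the form that prefers noradrenaline and serotonin as substrates. Its row (3975227) had 8.67, 7.75, 8.10, 8.18 and 8.32 in the paraquat arrays, against 9.35, 8.86, 9.11, 9.27 and 9.06 in the ctrl arrays. The groups did not overlap, although only 0.19 lay between paraquat 8 and ctrl 11. Paraquat 12 and ctrl 11 were the lowest of their groups, whereas the same arrays were the highest of their groups for DDC and SLC18A1. MAOA fell 1.90-fold, to 8.20 ± 0.33 in paraquat arrays, against 9.13 ± 0.19 in ctrl arrays. The log2 change was -0.93 ± 0.16 (limma adjusted p = 0.00182). The closest profiles were those of TOX, LCP1 and FGD6, at distances of 0.110, 0.116 and 0.127.

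**Figure D3:**
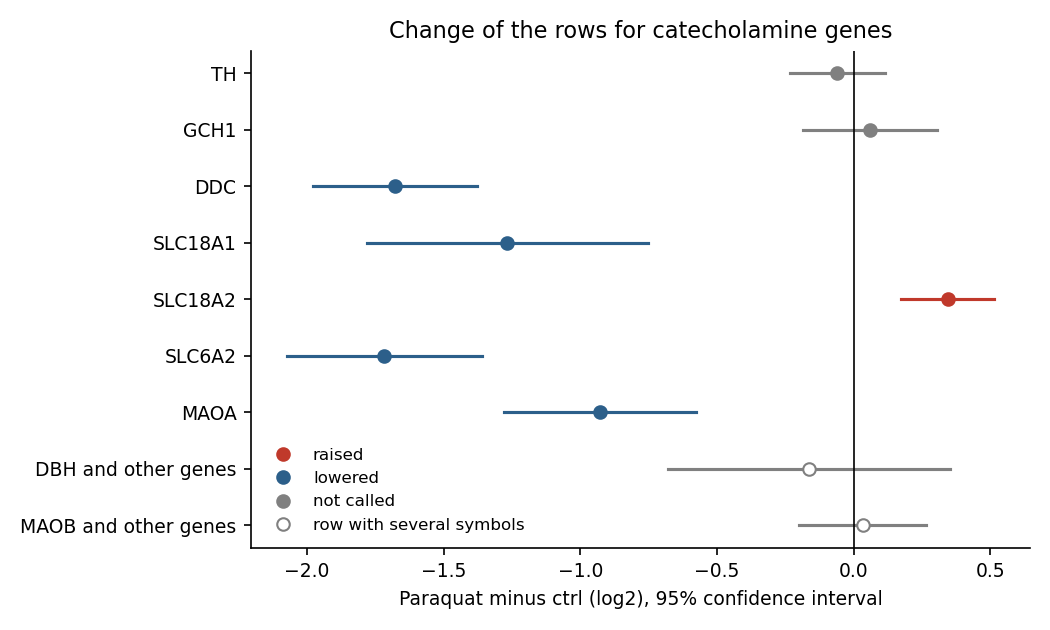
Log2 change, paraquat minus ctrl, with its 95% confidence interval (horizontal axis) for the 7 genes (filled) and the 2 shared rows (open). DDC, SLC18A1, SLC6A2 and MAOA lie left of zero with intervals that do not reach it, SLC18A2 lies right of zero, and the intervals of the others include zero.

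DBH, dopamine beta-hydroxylase, and MAOB, the monoamine oxidase that prefers phenylethylamine, could not be read on their own. The row that names DBH (3192820) carries 7 symbols, among them the ribosomal protein gene RPL7A and small nucleolar RNAs. It lay between 10.65 and 11.30 in paraquat arrays and between 10.43 and 11.72 in ctrl arrays, with a change of -0.16 ± 0.23 (limma adjusted p = 0.7103). The row that names MAOB (4006210) also names the acetyltransferase gene NAA50. It lay between 5.06 and 5.46 in paraquat arrays and between 4.91 and 5.29 in ctrl arrays, with a change of 0.03 ± 0.11 (adjusted p = 0.883). The groups overlapped in both rows, and neither value is a measurement of DBH or MAOB.

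Genes around the pathway were read in lists of their function. All lists were chosen with earlier results of these data known, so the shares of all genes give a scale and not a test. Among all genes 14.2% fell and 9.55% rose at an adjusted p under 0.05, the rule used for each list. Of 6 measured genes that complete, regulate or recycle tetrahydrobiopterin, 3 fell and 0 rose, with a median change of -0.37. QDPR, which regenerates the cofactor from its quinonoid form, fell by 0.93 to 6.95 in paraquat arrays, against 7.88 in ctrl arrays. PCBD1, a dehydratase of the same recycling route, fell by 0.60, and SPR, sepiapterin reductase of the final synthetic step, fell by 0.53.

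Of 7 genes that supply ascorbate and copper to DBH and other copper enzymes, 3 fell and 0 rose, at a median of -0.42. CYB561, the vesicle membrane cytochrome that passes electrons to ascorbate inside the vesicle, fell by 1.24, to 9.05 in paraquat arrays, against 10.29 in ctrl arrays (limma adjusted p = 7.51e-05). The ascorbate transporter SLC23A2 fell by 0.59 and the copper importer SLC31A1 by 0.53. Of 5 other monoamine carriers 1 fell and 0 rose. It was SLC29A4, the plasma membrane monoamine transporter, with a log2 change of -1.24 ± 0.20 (limma adjusted p = 0.00124). The list's median was 0.03, and it held the dopamine transporter SLC6A3.

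Of 9 enzymes of adjoining steps, which make adrenaline or serotonin or handle the aldehydes that monoamine oxidases produce, 1 fell and 0 rose, at a median of 0.06. The one that fell was AKR7A2, an aldehyde reductase, by 0.35. Of 11 adrenergic and dopamine receptors 1 fell and 0 rose, at a median of 0.10. It was the alpha-2A adrenergic receptor ADRA2A, the inhibitory autoreceptor of sympathetic neurons, which fell by 0.90 (limma adjusted p = 0.00475). At an unadjusted p under 0.05 in the same limma fit, 1 receptor and 0 members of each of these 4 other lists were higher in paraquat arrays. Lower were 3 of the 6 tetrahydrobiopterin genes, 5 of the 7 ascorbate and copper genes, and 1 each of the carriers, enzymes and receptors. By that unadjusted rule 14.4% of all genes were higher and 20.4% lower. By the adjusted rule 14.2% of all genes fell, so the single falls among enzymes, carriers and receptors lie near that share.

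**Figure D4:**
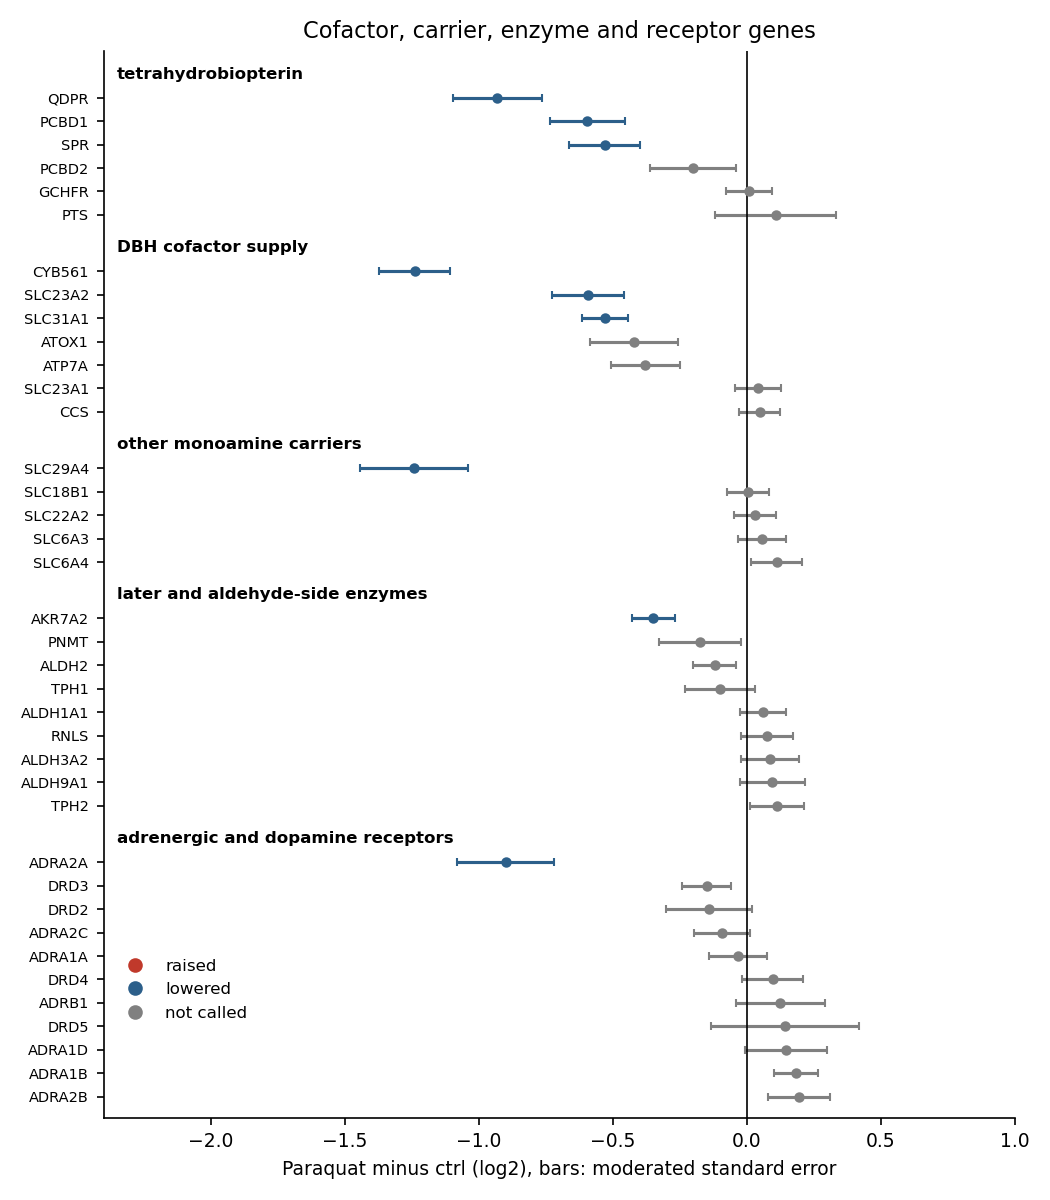
Log2 change, paraquat minus ctrl, with the moderated standard error (horizontal axis) for each measured gene of 5 lists around catecholamine metabolism. Blue points fell and grey points were not called; QDPR, CYB561, SLC29A4 and ADRA2A lie at -0.93, -1.24, -1.24 and -0.90, and no gene of these lists was called raised.

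Vesicle genes divided. Of 14 subunits of the proton pump whose gradient drives vesicular uptake, 1 fell and 0 rose at a median of -0.01, with 2 in each direction at an unadjusted p under 0.05 in limma, near or below the shares of all genes (14.4% higher, 20.4% lower). The one that fell was ATP6V1A, a catalytic subunit, by 0.60. Without ctrl 11 the counts were 2 raised and 2 lowered. Of 16 genes of vesicle cargo and release, 3 rose and 5 fell, against 9.55% and 14.2% of all genes, at a median of 0.02. The neuropeptide precursor VGF rose by 2.25 and secretogranin SCG2 by 2.05, whereas chromogranin CHGA fell by 1.66 and the synaptotagmin SYT4 fell by 1.28.

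A list of 12 genes held 14-3-3 proteins, the cyclic AMP-dependent kinase and protein phosphatase 2A, which bind or act on the TH protein. Of these 12 genes 1 rose and 4 fell, against 9.55% and 14.2% of all genes, at a median of -0.31. PPP2R2B and PPP2R2A, regulatory subunits of the phosphatase, changed by -0.62 and 0.50. The 14-3-3 protein YWHAH fell by 0.62 and the kinase catalytic subunit PRKACA by 0.51. Of 11 transcription factors of noradrenergic identity, 6 fell and 0 rose (0 also at an unadjusted p under 0.05 in limma, against 14.4% of all genes), at a median of -0.75. HAND1, TFAP2B, GATA2 and ISL1 fell most, with log2 changes of -2.19, -1.96, -1.91 and -1.21. Over this list the mean level per array lay between 7.80 and 7.97 in paraquat arrays and between 8.47 and 8.93 in ctrl arrays.

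Of 14 transcription regulators linked in published work to the promoters of TH or the monoamine oxidases, 7 rose and 2 fell, at a median of 0.51. By the same rule 9.55% of all genes rose and 14.2% fell. EGR1 rose by 4.12, FOS by 3.64, the nuclear receptor NR4A1 by 2.60 and JUN by 2.28. FOSL1, CREM and SIRT1 also rose, by 1.42, 0.97 and 0.52. The 2 that fell were CDCA7L, a repressor of MAOA in published work, by 0.82, and SP1, which binds GC boxes, by 0.55. CDCA7L and SP1 were named after their values were seen, and a part of either in the change of MAOA was not tested.

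Markers of other cell types and states were counted beside these genes. By the same adjusted rule 9.55% of all genes rose and 14.2% fell. Single calls in lists this short cannot be set apart from those shares. Of 14 mesenchymal neuroblastoma markers, 6 rose and 2 fell. The list mean per array lay between 7.93 and 8.30 in paraquat arrays and between 7.48 and 7.76 in ctrl arrays. FOSL2, SNAI2, TGFBI, CCN1, CD44 and FOSL1 rose, and FOSL1 was also among the promoter-linked regulators above. LUM and THY1 fell, with log2 changes of -1.53 and -1.16. VIM, FN1, PRRX1, DCN, COL3A1 and COL1A1 did not pass, so the list did not move as a whole. Of 9 pan-neuronal markers, 1 rose and 3 fell, with means of 9.27 to 9.56 in paraquat arrays and 9.36 to 9.49 in ctrl arrays. Of 6 cholinergic markers, 1 rose and 1 fell, with means of 5.65 to 5.77 in paraquat arrays and 5.64 to 5.84 in ctrl arrays. Of 7 leukocyte markers 2 rose, the lysosomal protein CD68 by 1.33 and the lipopolysaccharide co-receptor CD14 by 0.64, with list means of 4.49 to 4.64 in paraquat arrays and 4.17 to 4.31 in ctrl arrays. PTPRC, the defining pan-leukocyte marker, did not pass (limma adjusted p = 0.7097) and was at 2.72 in paraquat arrays and 2.67 in ctrl arrays, among the dimmest 20% of rows (means up to 4.18). Of 6 Schwann and glial markers 1 fell, with means of 3.86 to 4.28 in paraquat arrays and 4.003 to 4.33 in ctrl arrays. Of 8 midbrain dopaminergic markers 0 passed in limma (1, higher in paraquat arrays, at an unadjusted p under 0.05, against 14.4% of all genes), with means of 5.33 to 5.68 in paraquat arrays and 5.44 to 5.58 in ctrl arrays. The part of these markers in the changes of the catecholamine genes was not tested.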

How the data were processed

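The deposited table holds log2 expression values for 10 arrays, which the authors made by RMA according to the labels; the submitters' processing notes name that tool. RMA corrects background, normalizes between arrays and summarises probes. The sources used here state no software, summarisation level, filter or build for it, and the log2 scale was read from the values, which run from 1.07 to 14.37. Rows were named through the platform annotation: 14432 had 1 symbol, 2408 several and 5171 none. Where several rows had the same single symbol, the brightest stood for the gene.

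Groups were compared on the deposited values with limma 3.58.1 in R 4.3.3, two-sided, with group as the only term, 8 residual degrees of freedom and adjustment over all rows. The number of arrays limits precision: the median standard error was 0.13. The fit was tested on simulated data with known changes. All 7 genes were named, in each other list up to 4 passing members by absolute change, and for each member that passed the 3 genes nearest in profile. Named beyond this rule were all passing promoter-linked regulators, all measured mesenchymal markers, SLC6A3 and PTPRC. Exact permutation tests compared row differences, and normalization, filters, weights, blocks and left-out arrays were varied. The members and lists were chosen with earlier results of these data known. Some listed genes are not analysed here.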

Additional observations from a re-analysis of the deposited data

Results flagged for a closer look

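In SLC6A2, ctrl 13 stood apart from its group, at 9.79, against 9.30 to 9.44 in the other ctrl arrays. Its gap made up 0.720 of the group's range, above Dixon's critical value of 0.71 for 5 arrays. It was 1 of 14 groups of values examined, and chance marks about 1 group in 20. Without ctrl 13 the SLC6A2 change was -1.63 (limma adjusted p = 0.000148).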

How the results depend on the processing

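Without any 1 array, 4 catecholamine genes were lowered and 1 was raised in each of the 10 fits. The log2 change lay between -1.75 and -1.58 for DDC, between -1.46 and -1.10 for SLC18A1, between -1.82 and -1.62 for SLC6A2, between -1.04 and -0.81 for MAOA and between 0.31 and 0.38 for SLC18A2 (limma adjusted p from 0.0103 to 0.0300). The count of raised genes was 0 against a minimum fold of 1.2 and 0 without the dimmest 33.3% of rows, which removes the SLC18A2 row. TH, not called in any fit, had a change of 0.012 with array weights, opposite in sign to -0.06. Without any 1 array, the change of SLC18A2 exceeded that of SLC18A1 by between 1.44 and 1.81. Median centring, quantile normalization and an intensity trend left the direction and call of the 5 changed genes as they were. Exact permutation tests gave each of the 5 an unadjusted p of 0.00794, the floor that groups without overlap reach by construction. The labels give no shared replicate numbers. With neighbouring title numbers as a replicate block, the counts were again 4 lowered and 1 raised (SLC18A2 adjusted p = 0.0226). Residuals of neighbouring arrays correlated at 0.0912 to 0.461, and 3 of 5 paraquat arrays correlated best with their own neighbour. Over all genes, 1359 rose and 2025 fell, against 818 and 1191 at an adjusted p under 0.01 and 545 and 772 against a minimum fold of 1.2. For the proton pump without ctrl 11, the counts were 2 raised and 2 lowered, against 0 and 1. No probe-level or detection values were used, so signal over background limits what the dim SLC18A2 row can show. The same limit holds for the flat TH row.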
